A study of Mus musculus with 6 samples.

Results

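The 10 genes described here encode ETS transcription factors: Ehf, Elf1, Elf4, Ets1, Ets2, Fli1, Erg, Etv6, Spi1 and Gabpa. They were picked by symbol from the 26 mouse ETS genes found among the 23608 genes of the count table. Ehf was chosen for its lower level in tamoxifen libraries of these very data, so its values, and those of the other 9 in the same contrast, are a description and were not used as a test. All 10 had enough reads to enter the fit across 11614 genes.

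The libraries came from mouse leukemia cells expressing AE9a, a shortened AML1-ETO, the fusion protein of t(8;21) leukemia. All of the cells carried 1 floxed Usp18 allele and UBCER-Cre, a Cre that tamoxifen activates in every tissue. AE9a reached fetal liver cells by a retrovirus that also marks them with GFP, and the leukemia was passed to sub-lethally irradiated recipient mice, which keep some host blood cells. Sick recipients received oil (Usp18+/f, 3 libraries) or tamoxifen (labelled Usp18+/D, with D for the deleted allele, 3 libraries), and their spleens were sorted for GFP+ Lin- c-Kit+ cells on day 3 from the first injection. The comparison asks what halving the gene dose of Usp18, an ISG15 protease and brake on interferon signaling, does to RNA levels, but tamoxifen itself was given to only 1 of the 2 groups, so the drug and the deletion cannot be told apart.

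Library totals ran from 17118964.0 to 20741399.0 estimated counts, so 3 counts correspond to 0.145 to 0.177 CPM (the usual counts relative to library size, with TMM scaling), a floor that covers counting error only. Usp18 itself went against the label: its level ran from 9.12 to 11.2 CPM over the oil libraries, while those labelled tamoxifen 1, 2 and 4 held 15.1, 28.0 and 19.4 CPM (edgeR adjusted p = 0.0739). Gene-level counts do not separate the deleted exons from the rest. Tamoxifen 4 stood apart from its group, with a chi-square per degree of freedom of 57.25 and 69.1 against tamoxifen 1 and 2, where the other pairs within a group gave 7.32 to 18.41. Kit was present at 439 to 781 CPM, as the sort requires, while Ptprc, which encodes the pan-leukocyte antigen CD45, reached at most 0.709 CPM. All 8 T and NK cell, 5 B cell, 6 endothelial and 6 neutrophil markers in the table stayed under 1 CPM in every library. The sum of 7 mast cell markers was 2580 to 2789 CPM in oil and 2997 to 5450 CPM in tamoxifen, and that of 8 macrophage markers was 4.26 to 7.49 CPM and 7.07 to 14.0 CPM. At an edgeR adjusted p of 0.05, which 1.75% of all genes passed upward and 0.267% downward, the mast cell markers Fcer1a and Tpsb2 passed upward. Of 5 progenitor markers, Cd34 passed upward. These 3 calls were lost in limma-voom and without any of oil 1, oil 3, oil 4, tamoxifen 1 or tamoxifen 2, and kept without tamoxifen 4. The part of these shifts in the ETS values was not tested.

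ETS factors share a winged helix-turn-helix DNA-binding domain that reads a GGAA core, and the bases beside the core and partner proteins separate one member from another. Several of them build the blood system: PU.1 (Spi1) drives myeloid and B cells, Erg and Fli1 maintain stem cells and support megakaryocytes, and Etv6 holds stem cells in the bone marrow. ERG and FLI1 are known to occupy many of the sites that AML1-ETO binds in leukemia cells, next to RUNX sequences. Ehf belongs to the epithelial branch of the family, with Elf3 and Elf5.

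Promoter windows of 300 bases (250 before and 50 after an annotated start, RefSeq, GRCm38.p6) were at hand for 6 of the 10 genes, as 10 windows, with none for Ehf, Ets1, Fli1 and Spi1. They were searched on both strands for the ETS letters CCGGAAG, the RUNX letters TGTGGT and the interferon regulatory factor letters GAAANNGAA, which 8.86%, 16.8% and 8.56% of all 32851 windows held. CCGGAAG was found in 1 of the 10 windows, that of Gabpa, and TGTGGT in none. GAAANNGAA began 78 bases before the second start of Erg and, in the Etv6 window, just after the start. The Gabpa match lies on the minus strand in the stretch chr16:84835021-84835047, which overlaps exons annotated to Gabpa and to its neighbor Atp5j. The Erg match lies on the gene's own strand in the stretch chr16:95530385-95530493, outside annotated exons. Both are shown because they are the only upstream matches among these genes, with the matched letters in capitals.
Gabpa, plus strand: agggtaagtgCTTCCGGgtccctcagc
Erg, minus strand: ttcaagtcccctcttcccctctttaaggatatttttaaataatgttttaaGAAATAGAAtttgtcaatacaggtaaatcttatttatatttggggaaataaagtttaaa
A match of letters is a description of the window and not evidence of binding.

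Ehf, at chr2:103263433-103303278 on the minus strand (mm10, GENCODE M21), was the member with the lowest tamoxifen values relative to oil. It gave 24.3, 28.7 and 18.7 CPM in oil 1, 3 and 4 and 8.62, 5.79 and 7.85 CPM in tamoxifen 1, 2 and 4. These rest on 363.5 to 592.5 counts in oil and 97.5 to 157.0 in tamoxifen. The groups did not overlap, and every tamoxifen library lay far below the lowest oil library. The means were 23.9 ± 4.99 and 7.42 ± 1.46 CPM (SD, n = 3). The edgeR log2 fold change was -1.69 ± 0.21 (standard error, as in all log2 fold changes below), or 0.311 times the oil level. In bulk RNA, fewer cells with Ehf RNA and less Ehf RNA per cell cannot be told apart.

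Most epithelial markers were absent beside Ehf. Epcam, Krt8, Krt19 and Esrp1 had 0 counts in all 6 libraries, and Krt18, Cdh1 and Cldn7 stayed under 1 CPM. Grhl2, an epithelial transcription factor, was the exception at 79.4 to 89.7 CPM, with a log2 fold change of 0.00 ± 0.08 between the groups (adjusted p = 0.982). The nearest relatives of Ehf by protein were also close to absent: Elf3, 51.4% identical over 257 aligned residues, had 0.194 to 0.257 CPM in oil and 0.331 to 0.713 CPM in tamoxifen, and Elf5, 53.8% identical over 225 residues, had 2 counts in tamoxifen 2 and 0 elsewhere.

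**Figure D1:**
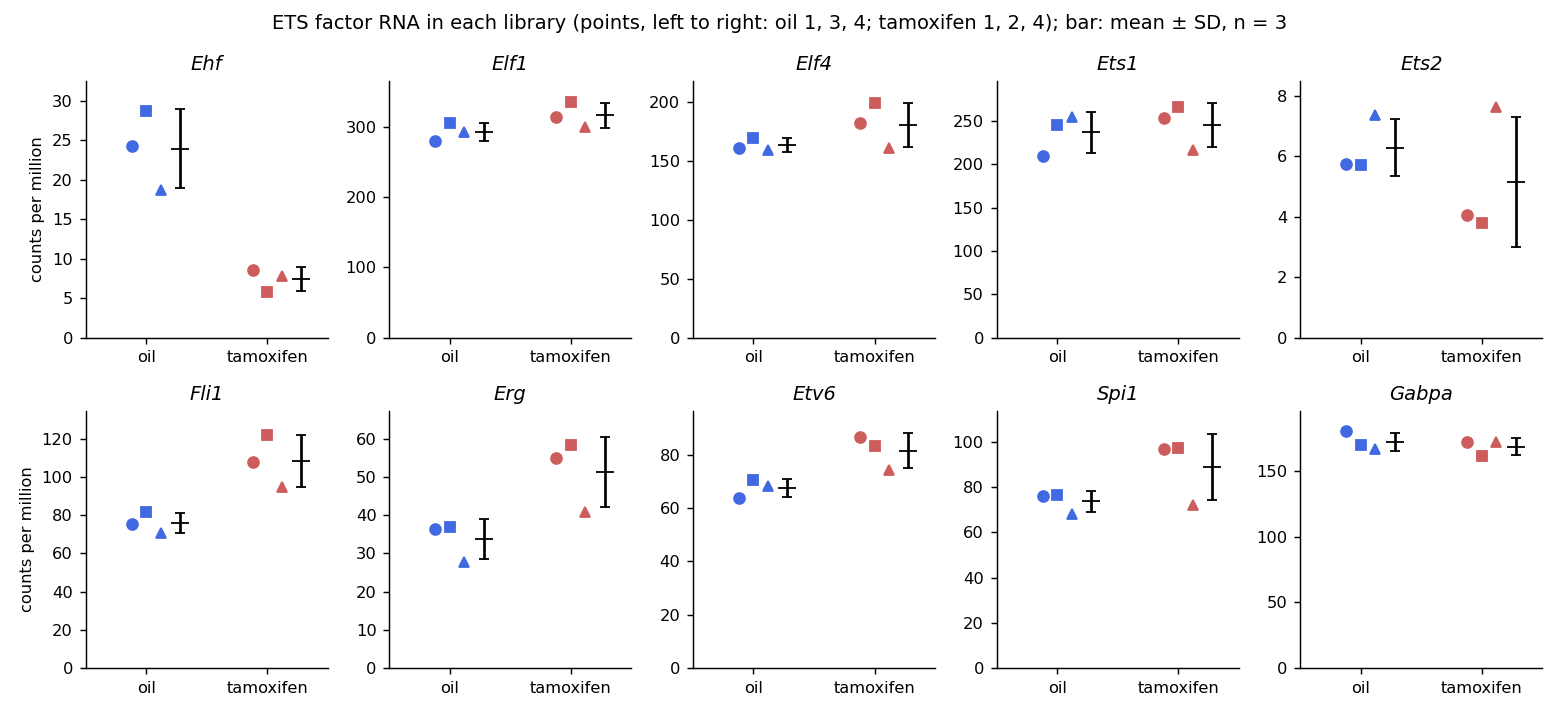
RNA of the 10 ETS factors in each library, in CPM on a linear axis from 0, with oil in blue and tamoxifen in red. Circles, squares and triangles are the libraries in the order of the title, and the bar is the mean ± SD (n = 3). Ehf is lower in all 3 tamoxifen libraries, Fli1, Erg and Etv6 are higher in all 3, and the other 6 overlap between the groups.

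Fli1 and Erg, the closest pair among the 10 in sequence (67.5% identical over 443 aligned residues), both had higher values with tamoxifen. Fli1 gave 75.3, 81.5 and 70.8 CPM in oil and 108, 122 and 94.9 CPM in tamoxifen, a log2 fold change of 0.51 ± 0.11. Erg gave 36.5, 36.9 and 27.8 CPM in oil and 54.9, 58.3 and 40.8 CPM in tamoxifen, a log2 fold change of 0.61 ± 0.17. Neither gene's groups overlapped, and tamoxifen 4 was the lowest tamoxifen library for both. Fli1 (chr9:32422204-32542861, minus strand) has Ets1 93.4 kb away on the opposite strand, and Erg (chr16:95359169-95586593, minus strand) has Ets2 115 kb away, also on the opposite strand. Ets1 and Ets2 themselves overlapped between the groups.

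Spi1 and Etv6 were higher in tamoxifen 1 and 2 but closer to oil in tamoxifen 4. Spi1 (chr2:91082390-91115756), which encodes the myeloid regulator PU.1, gave 76.3, 76.7 and 68.2 CPM in oil and 97.2, 97.5 and 72.0 CPM in tamoxifen. Its tamoxifen 4 value fell inside the oil range, and the log2 fold change was 0.27 ± 0.13. Etv6 (chr6:134035700-134270158), a repressor, gave 63.8, 70.5 and 68.1 CPM in oil and 86.8, 83.3 and 74.1 CPM in tamoxifen. The Etv6 groups did not overlap, with a log2 fold change of 0.27 ± 0.09.

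The groups overlapped for Elf1, Elf4 and Ets1, which are best known from lymphoid cells. Elf1 (chr14:79481194-79582494) gave 280, 305 and 292 CPM in oil and 314, 335 and 299 CPM in tamoxifen, a log2 fold change of 0.11 ± 0.08. Elf4 (chrX:48411046-48463132), a regulator of stem cell quiescence, gave 161, 170 and 159 CPM in oil and 182, 199 and 161 CPM in tamoxifen, a log2 fold change of 0.15 ± 0.10. Ets1 (chr9:32636221-32757820) gave 210, 246 and 255 CPM in oil and 254, 266 and 217 CPM in tamoxifen, a log2 fold change of 0.05 ± 0.11. For Elf1 and Elf4 tamoxifen 4 fell within the oil range, and for Ets1 oil 1 was the lowest library of all 6.

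Ets2 and Gabpa had the lowest ratios of tamoxifen to oil after Ehf. Ets2 (chr16:95702075-95721051), a factor that ERK signaling phosphorylates, gave 5.74, 5.72 and 7.36 CPM in oil and 4.06, 3.78 and 7.62 CPM in tamoxifen. Tamoxifen 1 and 2 were below every oil library and tamoxifen 4 was above them, so the log2 fold change of -0.28 ± 0.30 joins values on both sides of oil. Gabpa (chr16:84834925-84863779), which pairs with Gabpb1 or Gabpb2 and controls mitochondrial and housekeeping promoters, gave 180, 170 and 167 CPM in oil and 172, 161 and 172 CPM in tamoxifen, a log2 fold change of -0.03 ± 0.08. The Gabpa groups overlapped, with oil 1 the highest and tamoxifen 2 the lowest library.

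Of the 10 members, 1 (Ehf) was past an edgeR adjusted p of 0.05 downward and 0 upward, beside the 0.267% and 1.75% of all 11614 genes. Nothing is read from that count, since Ehf was selected on this contrast. Groups did not overlap for 3 members with tamoxifen higher and for 1 with tamoxifen lower, where 13.3% and 11.8% of all genes did so. DESeq2 on the same genes passed Ehf downward and Fli1 and Erg upward, with 6.14% of genes called higher and 1.99% lower.

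The count turned on single libraries, and so did the count over all genes. Without oil 1, oil 3, oil 4, tamoxifen 1 or tamoxifen 2, in 5 fits, 0 members passed in either direction. The fewest calls over all genes came from among the same 5 fits. In them the Ehf log2 fold change stayed between -1.84 and -1.54. Its edgeR p was 5.41e-05 to 0.000346 unadjusted and 0.054 to 0.145 adjusted. Without tamoxifen 4, Elf4, Fli1, Erg, Etv6 and Spi1 passed upward and Ehf and Ets2 downward, beside 19.2% of 11851 genes called higher and 17.1% called lower. Tamoxifen 4 lay 96.1% of the way from the oil mean to the mean of tamoxifen 1 and 2 for Ehf, 48.3% for Fli1, 37.9% for Etv6, 30.8% for Erg and -7.15% for Spi1. The tamoxifen 4 value of Ehf is one of those that chose it, so its position is a description.

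Ehf also varied within oil. Its coefficient of variation was 20.9% over the 3 oil libraries, larger than that of 97.2% of 3391 genes of like level, and oil 4 held the lowest value. In tamoxifen it was 19.7%, larger than 49.4% of 1743 genes of like level. Erg and Ets1 were also above most genes of like level in oil, at 15.2% and 10.1% (each larger than 94.1% of such genes), while Gabpa, at 3.74%, and Elf4, at 3.45%, were below the middle.

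Levels can be compared between genes only per length, as counts per kilobase of exon scaled to the library's sum of such values, as TPM are. On that scale Elf1 led in oil at 164 ± 6.36, above every other ETS gene in each oil library (SD, n = 3). Gabpa (114 ± 4.20), Ets1 (105 ± 10.9), Spi1 (103 ± 6.03) and Elf4 (100 ± 2.72) followed, and their ranges over libraries overlapped between neighbors in that order. Fli1 came next at 82.0 ± 5.13, below all of Elf4's values. Etv6 (42.5 ± 2.03) lay above Erg (36.6 ± 5.37), whose highest library, 39.8, was under the lowest of Etv6, 40.2. Ehf, at 16.1 ± 3.27, and Ets2, at 4.09 ± 0.64, closed the order of the 10.

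**Figure D2:**
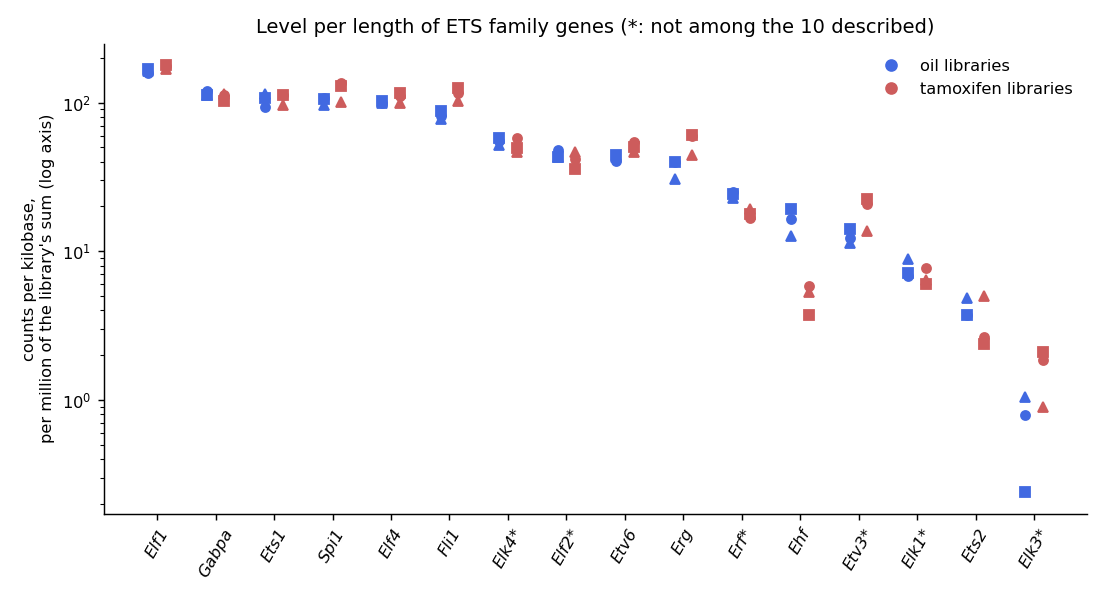
Level per length of the 16 ETS genes with an oil mean of at least 0.5, in counts per kilobase scaled like TPM, on a log axis, ordered by the oil mean. Each point is a library, oil in blue and tamoxifen in red, with symbols as in the plot of members by library. Elf1 leads in both groups, and Ehf moves from 16.1 in oil to 4.93 in tamoxifen.

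The 10 members made up 83.5% to 84.4% of the summed per-length level of the 26 ETS genes in oil and 85.4% to 86.7% in tamoxifen. Ehf supplied 1.76% of that sum in oil and 0.501% in tamoxifen on average, so it was a small part of the ETS RNA in both groups. Fli1 went from 8.98% to 11.6% and from place 6 to place 3 in the order, and Erg from 4.01% to 5.51%.

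The rest of the family was listed whole as 17 genes, of which 16 were in the table (Etv3l was not) and 6 could be tested. None passed: 0 of 6 at an adjusted p of 0.05 in edgeR, DESeq2 and limma-voom, and 3 of 6 at an unadjusted p under 0.05 in edgeR, beside 2391 of all 11614 genes. Erf, an ERK-controlled repressor, gave 23.9, 23.3 and 21.5 CPM in oil and 16.1, 17.9 and 18.3 CPM in tamoxifen, with no overlap (log2 fold change -0.39 ± 0.12, adjusted p = 0.137). Etv3, also a repressor, gave 33.3, 39.1 and 31.0 CPM in oil and 57.3, 64.4 and 37.0 CPM in tamoxifen (0.62 ± 0.20, adjusted p = 0.157). Elk3 held 0.291 to 1.23 CPM in oil and 1.10 to 2.66 CPM in tamoxifen (1.28 ± 0.55, adjusted p = 0.238). Elk1, Elk4 and Elf2 had log2 fold changes of -0.16, -0.09 and -0.08 with adjusted p of 0.606 to 0.659. Without tamoxifen 4, where 7 could be tested, Elk3 and Etv3 passed upward and Erf downward, beside 19.2% and 17.1% of 11851 genes. Etv1, Etv2, Etv4, Etv5, Fev, Spdef, Elf3, Elf5, Spib and Spic never reached 1 CPM, and Fev had 0 counts throughout.

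**Figure D3:**
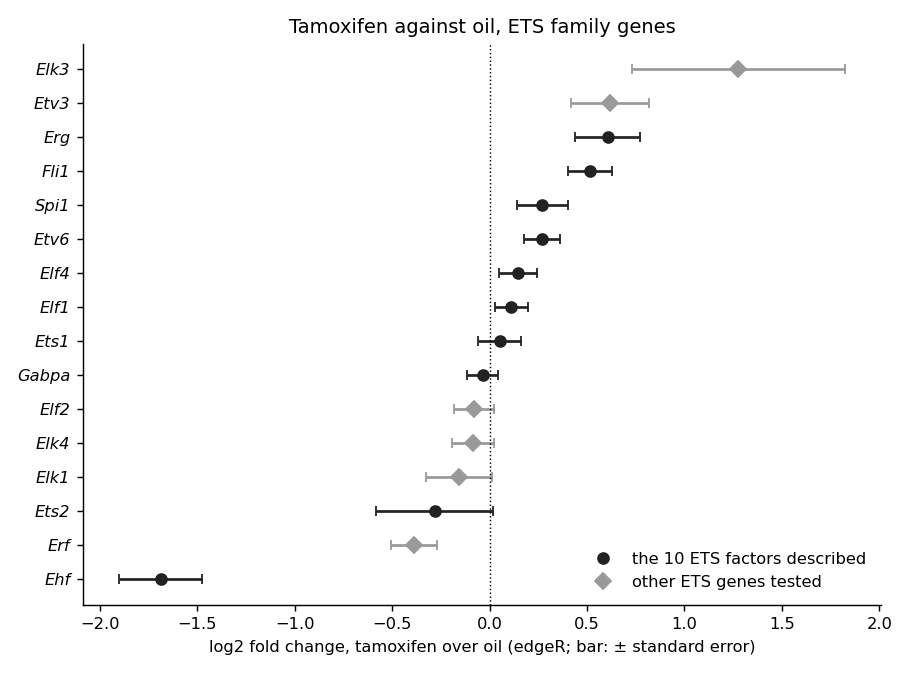
Log2 fold change of tamoxifen over oil from the edgeR fit for the 10 ETS factors (black circles) and the 6 other ETS genes tested (gray diamonds), with bars of 1 standard error. Ehf, at -1.69, lies below all others, the next being Erf at -0.39, and Elk3 has the widest bar.

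ETS factors act through partners, and 11 of 14 listed partner factors could be tested. Their median log2 fold change was 0.01, beside 0.00 over all tested genes. In edgeR 0 passed, with 3 of 11 at an unadjusted p under 0.05 (2391 of all 11614 genes). DESeq2 passed 2 upward and 1 downward, beside 6.14% and 1.99% of all genes, and limma-voom passed 0. Jun, which joins ETS factors on composite AP-1 sites, gave 13.2, 12.9 and 10.6 CPM in oil and 22.8, 39.9 and 14.4 CPM in tamoxifen (1.07 ± 0.33, adjusted p = 0.142). Lmo2, a bridging protein of stem cell complexes with Tal1, gave 183, 175 and 171 CPM in oil and 129, 118 and 147 CPM in tamoxifen (-0.43 ± 0.10, adjusted p = 0.0768). Runx1 gave 577, 582 and 545 CPM in oil and 809, 726 and 638 CPM in tamoxifen (0.35 ± 0.10, adjusted p = 0.134). Gene-level Runx1 counts could include reads of the AE9a transcript where the sequences are shared. Jun, Lmo2 and Runx1 were the 3 that DESeq2 passed, and without tamoxifen 4 their edgeR adjusted p were 0.00116, 0.000859 and 0.00169. In that fit 19.2% of 11851 genes passed upward and 17.1% downward. The PU.1 partners Irf4 and Irf8 and the myeloid factor Cebpa stayed under 1 CPM in every library.

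Textbook PU.1 target genes were mostly silent. Of 17 listed, 7 could be tested, 9 stayed under 1 CPM, and among these Csf3r, Itgam, Cybb and Mpo were at or near 0 although Spi1 itself was well above it. The median log2 fold change of the 7 was 0.86, beside 0.00 over all tested genes, and 1 rose (3 in DESeq2, 0 in limma-voom). Over all genes 1.75% rose in edgeR and 6.14% in DESeq2. The list was written with earlier results of these data known, so its count and median are descriptions. Ncf4, a subunit of the phagocyte NADPH oxidase, had 0.338, 0.145 and 0.103 CPM in oil and 4.66, 7.91 and 0.994 CPM in tamoxifen (4.51 ± 0.85, adjusted p = 0.0434). With 2.0 to 5.5 counts in oil, that fitted value depends on the prior count. Ctsg, a granule protease, stood at 0.900 to 1.44 CPM in oil and 2.41 to 5.67 CPM in tamoxifen (1.75 ± 0.40, adjusted p = 0.0746). Csf2rb, the shared beta chain of the IL-3 and GM-CSF receptors, gave 707, 827 and 652 CPM in oil and 2087, 2254 and 861 CPM in tamoxifen (1.25 ± 0.32, adjusted p = 0.0905). Tamoxifen 4 was the lowest tamoxifen library for Ncf4 and Csf2rb, and tamoxifen 1 for Ctsg.

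Megakaryocyte genes that FLI1 and GABPA control were likewise few in these cells. Of 9 listed, 4 could be tested (median log2 fold change 0.84), and Gp6, Gp9, Pf4 and Selp stayed under 1 CPM. The median over all tested genes was 0.00. In edgeR 1 of the 4 rose (2 in DESeq2, 0 in limma-voom), beside 1.75% of all genes in edgeR and 6.14% in DESeq2. This list too was written with earlier results known. Itga2b, which encodes the integrin CD41, gave 4.84, 4.75 and 5.71 CPM in oil and 24.8, 51.0 and 11.7 CPM in tamoxifen (2.51 ± 0.48, adjusted p = 0.0435). Its tamoxifen libraries were spread over a wide range, all above oil. Itgb3, its integrin partner, stood at 0.926 to 1.63 CPM in oil and 2.32 to 4.01 CPM in tamoxifen (1.29 ± 0.34, adjusted p = 0.1). Vwf stood at 11.7 to 12.8 and 14.1 to 18.5 CPM (0.40 ± 0.15, adjusted p = 0.2), and Gp1ba differed by 0.06 ± 0.08 (adjusted p = 0.660).

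GABPA target genes were as level as Gabpa. All 11 listed genes of mitochondrial transcription, respiration and the cell cycle could be tested, 0 passed in edgeR, DESeq2 and limma-voom (0 also at an unadjusted p under 0.05), and their median log2 fold change was -0.03. The widest differences were Polrmt, the mitochondrial RNA polymerase, at -0.24 ± 0.11 (adjusted p = 0.262), Skp2, a cell cycle ubiquitin ligase subunit, at -0.23 ± 0.24 (adjusted p = 0.601), and Cox4i1, a respiratory chain subunit, at 0.15 ± 0.08 (adjusted p = 0.331). Skp2 gave 46.5, 43.7 and 51.3 CPM in oil and 30.3, 31.4 and 59.1 CPM in tamoxifen, so tamoxifen 4 again lay on the other side of oil from its group. Without tamoxifen 4, Polrmt, Skp2 and Tfam passed downward, beside 17.1% of 11851 genes.

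ERK signaling controls several ETS proteins, and 8 of 13 listed response genes could be tested (median log2 fold change 0.97). The median over all tested genes was 0.00. In edgeR 1 of the 8 rose (3 in DESeq2, 0 in limma-voom), beside 1.75% of all genes in edgeR and 6.14% in DESeq2. This list too was written with earlier results known. Spred1, an inhibitor of RAS and ERK signaling, gave 35.2, 23.8 and 34.6 CPM in oil and 63.1, 84.4 and 55.7 CPM in tamoxifen (1.12 ± 0.20, adjusted p = 0.0399). Spry1, another feedback inhibitor, stood at 1.60 to 3.55 CPM in oil and 6.63 to 7.91 CPM in tamoxifen (1.44 ± 0.30, adjusted p = 0.0551). Fosl1, an AP-1 subunit, was lower in all 3 tamoxifen libraries, at 0.679 to 1.29 CPM in oil and 0.354 to 0.442 CPM in tamoxifen (-1.23 ± 0.43, adjusted p = 0.180). Of the 8 tested, 6 had a positive and 2 a negative log2 fold change, and the Fosl1 value rests on 14.5 to 23.0 counts in oil and 5.5 to 8.0 in tamoxifen.

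**Figure D4:**
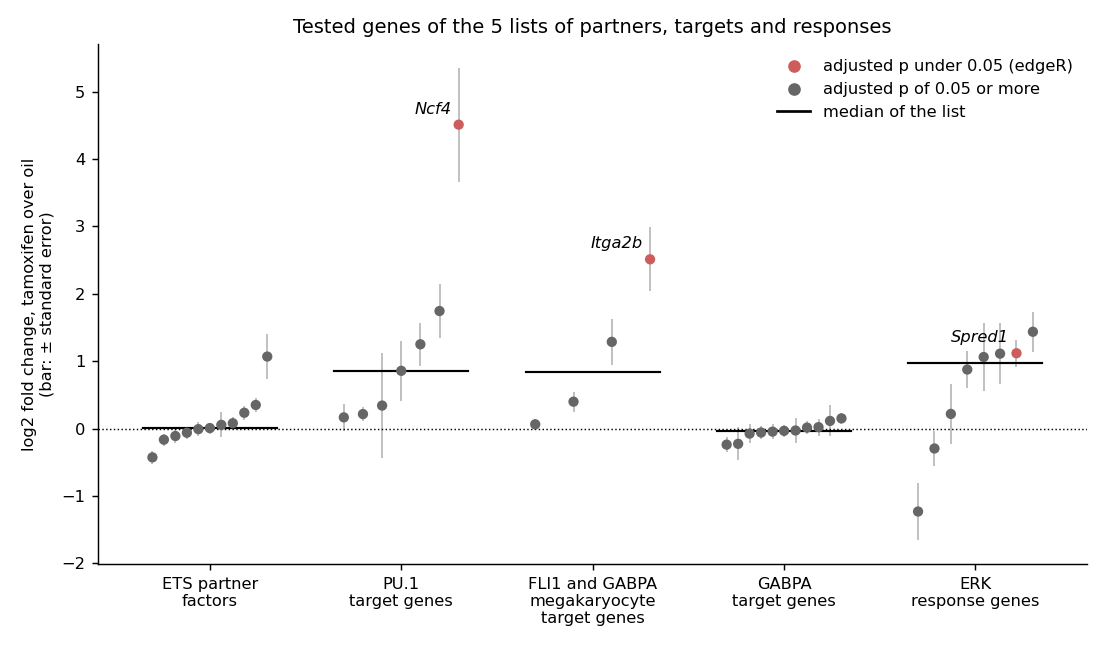
Log2 fold change of tamoxifen over oil for each tested gene of the 5 lists, with bars of 1 standard error and a black line at the list's median. The 3 genes in red, Ncf4, Itga2b and Spred1, passed an edgeR adjusted p of 0.05, and the GABPA targets and the partner factors sit around 0.

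The calls on Ncf4, Itga2b and Spred1 were lost when any of oil 1, oil 3, oil 4, tamoxifen 1 or tamoxifen 2 was left out, with adjusted p of 0.110 to 0.202, 0.0761 to 0.217 and 0.0945 to 0.187. Without tamoxifen 4 they were 8.3e-05, 7.26e-05 and 0.000555. In that fit 16 genes of the 5 lists passed upward and 5 downward, with 11, 8, 4, 11 and 9 genes tested per list. Over all 11851 genes of the same fit, 19.2% passed upward and 17.1% downward. The progenitor marker Cd34 was also higher in all 3 tamoxifen libraries (8.43 to 11.7 CPM in oil, 41.8 to 134 CPM in tamoxifen), as was the sum of the mast cell markers, and their part in these 3 results was not tested.

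Of the 3 nearest protein-coding genes on each side of Ehf, 4 could be tested and 0 passed in edgeR, DESeq2 and limma-voom (1, Apip, at an unadjusted p under 0.05). Elf5, on the opposite strand 108 kb away, and Abtb2 were near 0. Cd44, an adhesion receptor, Pdhx, a pyruvate dehydrogenase subunit, Apip, a methionine salvage enzyme, and Cat, the catalase, had log2 fold changes of -0.06, -0.22, -0.43 and 0.10 with adjusted p of 0.652, 0.370, 0.239 and 0.678. Apip gave 39.6, 37.1 and 36.3 CPM in oil and 22.3, 24.6 and 37.0 CPM in tamoxifen, so it was lower in tamoxifen 1 and 2 but not in tamoxifen 4. Without tamoxifen 4, Pdhx and Apip passed downward, beside 17.1% of 11851 genes.

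Over the 6 libraries, the profiles most like that of Ehf among 9661 genes with a mean of at least 5 CPM were those of Zfp239 (Pearson r of 0.995 on log2 CPM), Rreb1 (0.995), Slc25a51 (0.994), Ntn4 (0.991) and Heca (0.991). The points share the 2 group means and their libraries' depth, and r within groups was 0.888 to 0.990. Their differences were far smaller than that of Ehf, with log2 fold changes from -0.46 for Heca to -0.21 for Slc25a51. Heca passed downward in edgeR (adjusted p = 0.0435), as 0.267% of all genes did, and the rest did not (0.0747 to 0.202). Rreb1, a zinc finger factor at the end of RAS signaling, gave 185, 184 and 173 CPM in oil and 151, 144 and 150 CPM in tamoxifen. Ntn4, a secreted netrin, gave 106, 112 and 104 CPM in oil and 88.1, 78.3 and 82.7 CPM in tamoxifen. In both genes tamoxifen 4 kept to its group, which follows from their choice by likeness to Ehf.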

How the data were processed

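RNA-seq was performed on sorted leukemia cells from 3 oil and 3 tamoxifen recipients, described as biological replicates. The authors deposited 1 table of estimated counts per gene symbol, with values in steps of 0.5; their processing notes name STAR, DESeq2 and mm10, and the counting program is not given in the sources used here. Values were rounded to whole numbers. Genes were filtered with filterByExpr, scaled by TMM and tested with edgeR's quasi-likelihood test (glmQLFit, glmQLFTest) with Benjamini-Hochberg adjustment over all 11614 genes at 0.05 (R 4.3.3, edgeR 4.0.16). DESeq2 1.42.0 and limma 3.58.1 (voom) were alternatives. The fits were tested on simulated data first. CPM were counts divided by TMM-scaled library sums. Levels per length used exon unions of GENCODE M21, which matched 97.6% of symbols. Protein identity came from local alignments (BLOSUM62) of translated GENCODE M21 coding sequences.

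Libraries carry the numbers of the table (oil 1, 3, 4 and tamoxifen 1, 2, 4), which differ from the sample titles for oil 3 and tamoxifen 2. The members and lists were chosen with earlier results of these data known. Named genes are all ETS genes, list genes past the threshold or among the 3 largest absolute log2 fold changes of a list, 3 neighbors on each side of Ehf, the 5 profiles most like Ehf, and Usp18. Tfam, Gp1ba, the cell type markers and list genes given as near 0 were named after their values were seen.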

Additional observations from a re-analysis of the deposited data

How the results depend on the processing

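Log2 fold changes of 41 named genes were refitted under 14 alternatives. 491 values kept their direction and side of the threshold, 43 passed only under the alternative, 32 no longer passed, and 3 changed sign: Ets1, from -0.03 without oil 1 to 0.133 without tamoxifen 4 (-0.006 without tamoxifen 2), and Cat, from -0.007 without tamoxifen 2 to 0.223 without tamoxifen 4. Over all genes, 203 higher and 31 lower became 713 and 231 with DESeq2, 48 and 6 with limma-voom, and 372 and 61 without a filter. They became 120 and 17 with a mean of at least 50 counts, and 7 and 0 at the study's thresholds (adjusted p 0.005, absolute log2 fold change 0.5). Those thresholds were applied here to the edgeR fit, while the study used them with a Wald test. ETS members higher were 2 with DESeq2 and 1 without a filter, and members lower 0 at the study's thresholds in edgeR. In the DESeq2 Wald test, Ehf (-1.687, adjusted p = 2.4e-10) and Fli1 (0.515, adjusted p = 0.00352) were past both cutoffs. Erg was not (adjusted p = 0.0212). List genes higher, 3 in the report, were 10 with DESeq2 (1 lower), 0 with limma-voom, 6 without a filter, 1 at a mean of 50 counts and 0 at the study's thresholds. Leaving out 1 library gave 8 to 2278 genes higher and 0 to 2024 lower, 0 to 5 members higher and 0 to 2 lower, 0 to 2 other ETS genes higher and 0 to 1 lower, 0 to 16 list genes higher and 0 to 5 lower, and 0 to 2 neighbors of Ehf. In each the upper end was without tamoxifen 4. The causes were not tested.

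The replicate block used the library numbers of all 6 libraries. Only numbers 1 and 4 are shared by both groups, so oil 3 and tamoxifen 2 each formed a block alone. This left 1 residual degree of freedom, and 215 genes were higher and 26 lower. The check of pairing gave correlations of -0.127 (number 1) and 0.062 (number 4) between the deviations from the group means, and the numbers were not taken to pair libraries. The order of levels kept all 10 ranks with TMM library sizes and 7 without oil 4, and the 5 profiles most like Ehf were shared with a prior count of 0.5. Depth limits genes near 3 counts, such as Ncf4 in oil.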
